A study of Mus musculus with 12 samples.

Results

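The osteoblast lineage transcription factors described here are 9 of the 32288 genes and transgenes counted, taken by gene name. They are *Runx2*, its partner *Cbfb*, *Sp7* (Osterix, *Osx*), the homeobox genes *Dlx3*, *Dlx5*, *Dlx6*, *Msx1* and *Msx2*, and *Twist1*. Bulk RNA-seq was run on mGFP+ CD31- CD45- TER119- cells sorted from the metaphysis, the part of a long bone next to the growth plate, in 4 groups of mice. All mice carried *Osx-CreERT2* and the *mTmG* reporter, so that tamoxifen turned *Osx*-expressing cells from membrane tdTomato to membrane GFP. CreERT2 sits at the start codon of *Sp7* in this allele, so every group, controls included, had an *Sp7* allele that carried the recombinase, and *Sp7* is both a gene of interest and the gene that chose the cells. Juvenile *Osx*+ osteoblasts (4 libraries, 3 weeks of age) and adult *Osx*+ osteoblasts (4 libraries, 8 weeks of age) came from *Osx-CreERT2*; *mTmG* mice, with 2 males pooled per library, 2 days after the last of 3 daily doses of tamoxifen and with the shaft trimmed about 2 mm from the growth plate. *c-Myc* osteoblasts (2 libraries) also carried LSL-tTA and Col1a1::TetO–c-Myc, in which recombination starts a tetracycline transactivator that drives *c-Myc*, and *c-Myc* + *R172H* osteoblasts (2 libraries) carried in addition Trp53-LSL-R172H, a mutant p53 that acts against the normal protein. Per the labels these last groups held mice of both sexes, while the methods elsewhere give males for RNA-seq. They were given tamoxifen on 2 days and collected 7 days later with a trim of about 5 mm. They bear 3 weeks in their titles but 5 weeks of age in the protocol. Per the methods, mice with this tet-OFF system, or pregnant females, drank doxycycline or tetracycline until a set time before analysis. No such treatment is stated for the controls, which lacked these alleles. Differences between induced and juvenile osteoblasts therefore cannot be told apart from those of dosing, chase and trim. Nor can they be told apart from those of drug in the water, age and sex as far as these differed.

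RUNX2 binds DNA together with CBFB, a subunit that stabilizes the complex, and mice without *Runx2* make no bone. SP7 acts after RUNX2 in the same lineage and is likewise needed for osteoblasts to form. DLX3, DLX5 and DLX6 are homeodomain proteins that raise osteoblast genes, MSX1 and MSX2 are related homeodomain proteins that mostly act as repressors and often oppose the DLX proteins, and TWIST1 is a basic helix-loop-helix protein that restrains RUNX2 early in the lineage. The ID proteins are partners that take up the E proteins with which TWIST1 pairs.

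The sequences below are shown because *Runx2* and the osteocalcin gene *Bglap*, a classical RUNX2 target, carried RUNX motifs next to their start sites, while *Twist1* and *Msx2*, the factors that fell and rose most in *c-Myc* osteoblasts by log2 fold change, carried none. RefSeq promoters of GRCm38.p6, from 250 bases before to 50 bases after the start, were present for 5 of the 9 factors (*Runx2*, *Cbfb*, *Msx1*, *Msx2* and *Twist1*) and for 18 of 23 listed target genes. The motif searched was TGTGGT on either strand (read as ACCACA on the other), printed in capitals. It occurred 3 times in the *Runx2* promoter (chr17:44814578-44814877, minus strand), at positions -80, 23 and 31 from the start, and once in that of *Bglap* (chr3:88384417-88384716, minus strand), at position -132. It was found in 1 of the 5 factor promoters and in 6 of the 21 promoters of the 18 target genes, some of which have a pair of promoters. Of all 32851 promoters 16.8% held it. The E-box CACGTG, the site that c-Myc prefers, was in none of the 5 factor promoters and in 7.15% of all promoters. The windows of *Twist1* (chr12:33957421-33957720, plus strand) and *Msx2* (chr13:53472731-53473030, minus strand) hold neither motif.
*Runx2* promoter: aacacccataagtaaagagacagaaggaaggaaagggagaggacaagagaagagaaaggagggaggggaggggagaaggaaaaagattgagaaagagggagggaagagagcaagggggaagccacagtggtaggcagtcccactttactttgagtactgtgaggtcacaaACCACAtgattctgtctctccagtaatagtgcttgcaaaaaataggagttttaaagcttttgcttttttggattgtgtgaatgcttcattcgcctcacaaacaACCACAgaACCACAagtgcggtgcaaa
*Bglap* promoter: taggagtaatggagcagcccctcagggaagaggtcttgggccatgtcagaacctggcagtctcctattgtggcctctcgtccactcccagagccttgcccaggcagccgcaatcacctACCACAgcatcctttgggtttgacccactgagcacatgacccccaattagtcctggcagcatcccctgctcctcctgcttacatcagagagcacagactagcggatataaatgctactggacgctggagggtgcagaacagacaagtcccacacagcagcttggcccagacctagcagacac
*Twist1* promoter: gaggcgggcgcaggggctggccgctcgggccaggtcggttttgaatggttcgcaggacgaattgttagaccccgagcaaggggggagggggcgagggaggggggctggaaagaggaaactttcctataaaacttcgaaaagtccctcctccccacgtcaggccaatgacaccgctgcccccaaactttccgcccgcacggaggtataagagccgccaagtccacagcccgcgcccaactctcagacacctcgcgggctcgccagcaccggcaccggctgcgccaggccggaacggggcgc
*Msx2* promoter: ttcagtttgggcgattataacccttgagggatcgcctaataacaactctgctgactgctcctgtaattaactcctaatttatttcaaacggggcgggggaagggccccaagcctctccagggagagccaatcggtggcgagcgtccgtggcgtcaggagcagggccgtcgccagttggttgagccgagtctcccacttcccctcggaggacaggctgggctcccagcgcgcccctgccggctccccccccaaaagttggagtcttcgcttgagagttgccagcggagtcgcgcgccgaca

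Total counts per library were 10256521 to 12648874 in juvenile, 9066154 to 10823288 in adult, 13779052 to 15684412 in *c-Myc* and 12823338 to 13745901 in *c-Myc* + *R172H* osteoblasts. *Col1a1*, *Col1a2* and *Gm26917* took 57.1 to 65.3%, 42.4 to 56.1%, 41.8 to 46.1% and 35.2 to 37.6% of the counts in these groups. Levels are therefore given as CPM, counts relative to library size, with the sizes scaled by the trimmed mean of M values (TMM), which sets the bulk of genes equal, and on this scale 3 counts were at most 0.417 CPM. Osteoblast markers were present in all libraries, with 11 of 11 detected and summed levels of 596603 to 874469 CPM in juvenile, 364143 to 649604 CPM in adult, 104260 to 137583 CPM in *c-Myc* and 59006 to 60932 CPM in *c-Myc* + *R172H* osteoblasts. Both collagens are among them, and on the log2 scale *Col1a1* was -2.68 and *Col1a2* -2.61 in *c-Myc* against juvenile osteoblasts. The joint share above therefore differed in make-up, with *Gm26917* a larger part of it in induced than in juvenile libraries. The part of each of these entries in the scaling was not tested. The 15 chondrocyte markers, none of them at 0 in any group, summed to 18801 to 36942 CPM in juvenile and 44871 to 142517 CPM in adult libraries, and to 1889 to 2129 CPM and 881 to 1048 CPM in *c-Myc* and *c-Myc* + *R172H* libraries. Since *Runx2* and *Sp7* are also used by maturing chondrocytes, this is given as a measured difference between the groups, and its part in the results was not tested. In sorted bulk cells, fewer cells of a type cannot be told apart from less RNA per cell. The 14 haematopoietic markers summed to at most 13.6 CPM, the 6 endothelial markers to at most 9.78 CPM and the 6 muscle markers to at most 3.24 CPM in any library. The 8 markers of marrow stromal cells summed to 340 to 433 CPM in juvenile, 443 to 677 CPM in adult, 157 to 244 CPM in *c-Myc* and 140 to 160 CPM in *c-Myc* + *R172H* libraries. In the same order of groups the 6 osteoclast markers summed to 129 to 151, 93.0 to 116, 18.0 to 23.5 and 19.5 to 21.3 CPM, with *Calcr* and *Ocstamp* at 0 in all groups. The 5 neural or Schwann cell markers summed to 12.7 to 15.3 CPM in juvenile, 22.5 to 55.1 CPM in adult, 2.27 to 2.65 CPM in *c-Myc* and 2.88 to 3.82 CPM in *c-Myc* + *R172H* libraries. The part of these in the results was not tested either.

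Per kilobase of exon, the order of levels in juvenile osteoblasts was *Sp7* (69.8 CPM per kb), *Dlx3* (41.1), *Cbfb* (26.8), *Runx2* (25.7), *Twist1* (24.1), *Dlx5* (21.2), *Dlx6* (4.77), *Msx1* (1.33) and *Msx2* (0.350). *Sp7*, from 66.8 to 72.3 CPM per kb over the 4 libraries, stood clear of *Dlx3*, from 37.2 to 47.3, and *Dlx3* stood clear of *Cbfb*, from 22.0 to 29.4. *Cbfb*, *Runx2*, *Twist1* and *Dlx5* overlapped their neighbours in this order, as did *Msx1* and *Msx2*, whereas *Dlx6*, from 2.35 to 8.89 CPM per kb, overlapped neither. The homeobox genes thus covered almost the whole range, *Dlx3* near the top and *Msx1* and *Msx2* at the bottom. The plot of levels by library shows all 9 genes.

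**Figure D1:**
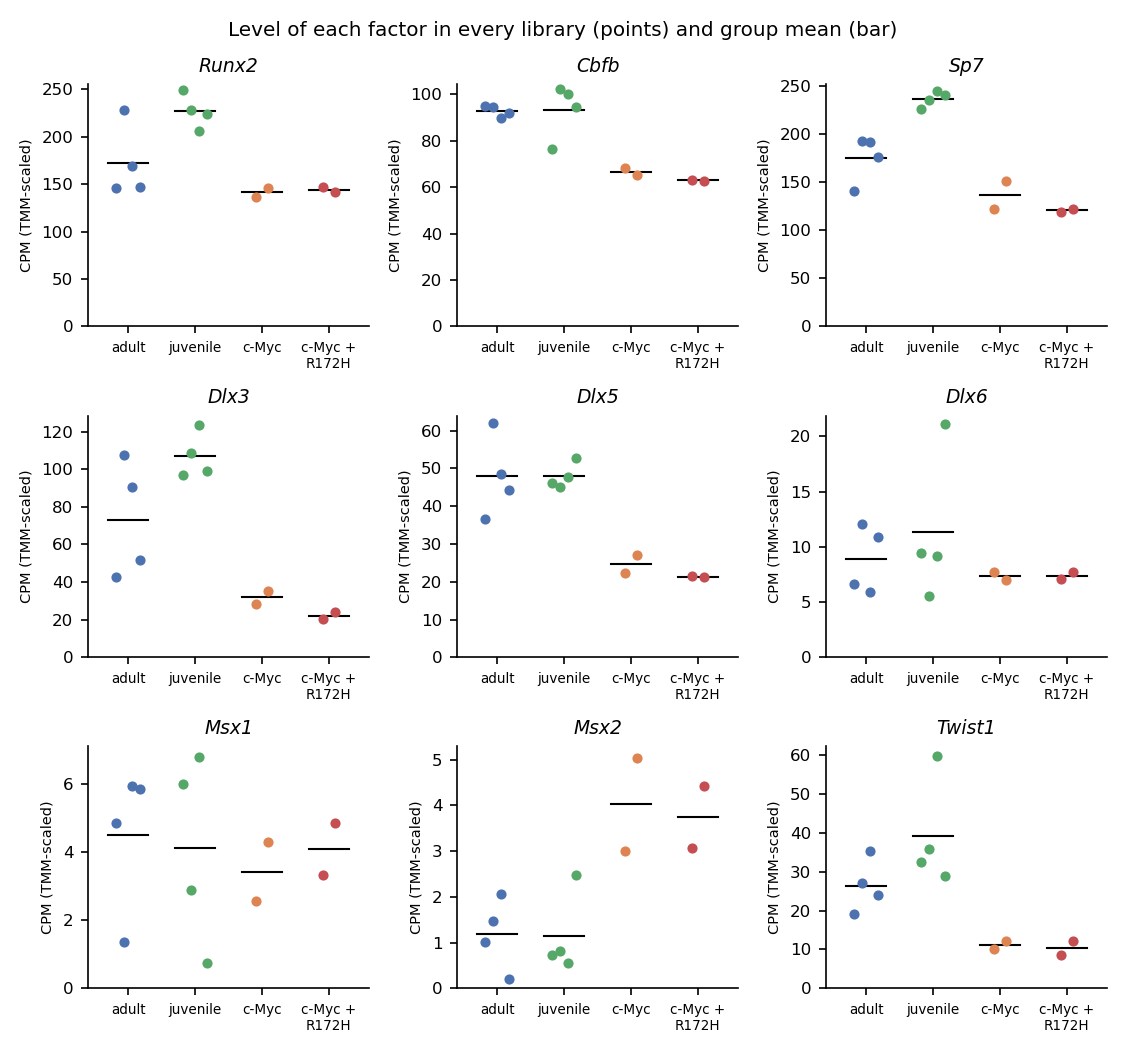
CPM (linear axis from 0) of each of the 9 factors in every library, with adult, juvenile, *c-Myc* and *c-Myc* + *R172H* osteoblasts along the horizontal axis; each point is a library and the bar is the group mean. *Runx2*, *Sp7*, *Dlx3*, *Dlx5*, *Cbfb* and *Twist1* lay below all juvenile libraries in the induced libraries on this scale (on library totals, *Runx2*, *Sp7* and *Cbfb* were higher), *Msx2* lay above them, and *Dlx6* and *Msx1* overlapped.

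Across the 4 comparisons, the factors called at an adjusted p below 0.05 (edgeR's quasi-likelihood F test, Benjamini-Hochberg adjustment over all genes tested) were few with age and many with *c-Myc*. Between juvenile and adult osteoblasts, 8 of the 9 factors passed the filter on low counts, and 1, *Sp7*, was called higher in juvenile cells while none was called lower, against 1.89% of all 11345 genes tested called higher and 3.23% called lower. Between *c-Myc* and juvenile osteoblasts, all 9 were tested, and *Msx2* was called higher and *Runx2*, *Sp7*, *Dlx3*, *Dlx5*, *Cbfb* and *Twist1* were called lower in *c-Myc* cells relative to the bulk of genes, against 28.4% of all 12588 genes tested called higher and 25.0% called lower. Of these, *Msx2* rose and *Dlx3* and *Twist1* fell by at least 1 on the log2 scale, as 18.4% of all genes rose and 16.0% fell. *Msx2* passed the filter on low counts only through the induced libraries, where it was high, so its calls are descriptions and no independent support. Between *c-Myc* + *R172H* and juvenile osteoblasts the same 7 factors were called in the same directions, against 30.4% of all genes called higher and 26.3% called lower, and *Msx2* on one side and *Dlx3*, *Dlx5* and *Twist1* on the other passed 1 on the log2 scale, as did 19.6% of all genes upwards and 17.9% downwards. This comparison and that of *c-Myc* share the juvenile libraries, so their likeness is no second observation. Between *c-Myc* + *R172H* and *c-Myc* osteoblasts 0 of 9 factors were called in either direction, against 0.00794% of all genes called higher and 0.461% called lower. The median log2 fold change of the tested factors was 0.36 with age, -0.71 with *c-Myc*, -0.65 with *c-Myc* + *R172H* against juvenile and -0.070 between the induced groups, where the medians over all genes tested were 0.00093, 0.037, 0.076 and -0.0028.

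**Figure D2:**
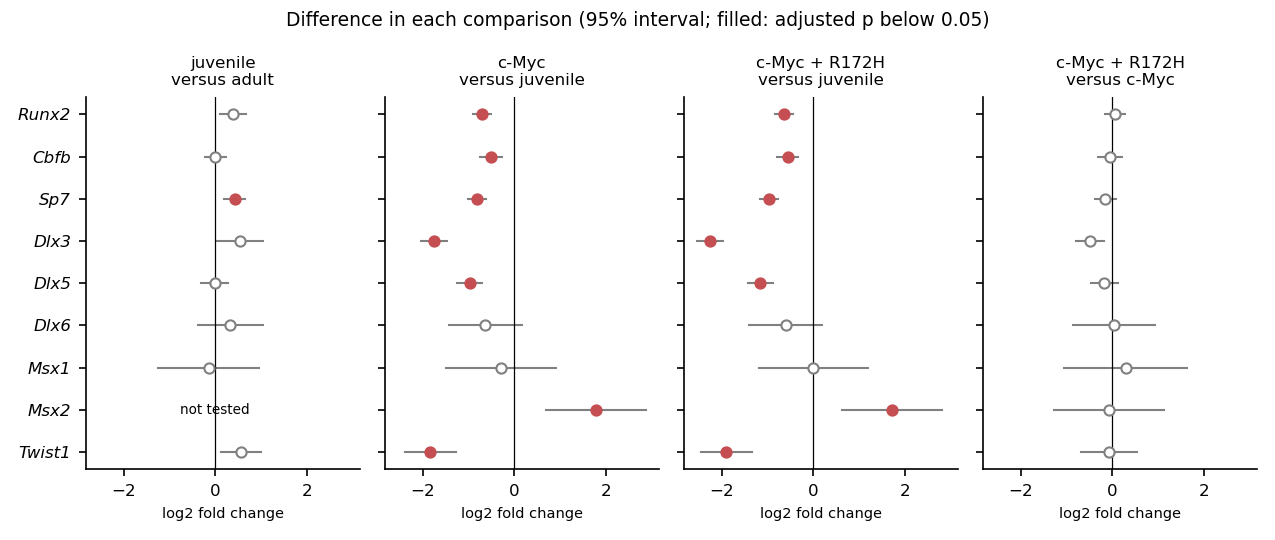
Log2 fold change of each factor (horizontal axis, first group over second) in the 4 comparisons, with a nominal 95% interval. The interval is 1.96 SE to either side, which is too narrow for so few libraries. Filled points passed an adjusted p below 0.05. The 6 lower calls and the *Msx2* call appear in both comparisons with juvenile osteoblasts (on library totals *Runx2*, *Sp7* and *Cbfb* turned), *Sp7* alone is filled with age, and *Msx2* was filtered out there.

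The direction of the *c-Myc* calls of *Runx2*, *Sp7* and *Cbfb* depended on how the libraries were scaled. With library totals in place of TMM, the median of all genes moved to 0.87 on the log2 scale in *c-Myc* against juvenile osteoblasts and to 1.12 in *c-Myc* + *R172H* against juvenile osteoblasts, and after *Col1a1*, *Col1a2* and *Gm26917* were left out of the totals (a setting chosen after the data were seen) to 0.32 and 0.39. All genes called were then 6803 higher and 1115 lower in the first comparison, against 3577 and 3149 with TMM, and 7668 and 1169 in the second, against 3832 and 3311. With age they were 53 higher and 793 lower, against 214 and 367, and the median moved to -0.24. On library totals *Runx2* was 0.12, *Sp7* 0.017 and *Cbfb* 0.33 on the log2 scale in *c-Myc* against juvenile cells, none of them called, while *Dlx3* (-0.93, edgeR adjusted p = 0.000234), *Twist1* (-0.99, adjusted p = 0.00700) and *Msx2* (2.63, adjusted p = 0.000683) kept their directions and calls. Relative to the median gene of that scaling, *Runx2* was -0.76, *Sp7* -0.85 and *Cbfb* -0.54. With *Col1a1*, *Col1a2* and *Gm26917* left out of the totals, the directions in *c-Myc* against juvenile cells were those of TMM. *Runx2* was -0.40 (edgeR adjusted p = 0.00529), *Sp7* -0.51 (adjusted p = 0.000740), *Dlx5* -0.67 (adjusted p = 0.00107) and *Cbfb* -0.20 (adjusted p = 0.159) on these totals. Every "lower" below is relative to the bulk of genes in this sense.

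*Runx2* (ENSMUSG00000039153, GRCm38 chr17:44495987-44814797, minus strand) had 250, 228, 207 and 225 CPM in the juvenile libraries and 146, 229, 169 and 147 CPM in the adult ones. Adult replicate 2 lay within the juvenile range and the other adult libraries below it. With 1.31 times the adult level in juvenile cells (log2 fold change 0.39, SE 0.14), the difference did not pass edgeR's test (adjusted p = 0.123), but it did without adult replicate 2 (log2 fold change 0.56, adjusted p = 0.00944). This library also had the lowest summed chondrocyte markers of the adult group, 44871 CPM, and a link between these values was not tested. In *c-Myc* osteoblasts *Runx2* was at 137 and 146 CPM and in *c-Myc* + *R172H* osteoblasts at 147 and 142 CPM, below every juvenile library. It fell 1.63-fold with *c-Myc* (log2 fold change -0.71, SE 0.099, edgeR adjusted p = 6.49e-05) and 1.57-fold with *c-Myc* + *R172H* (-0.65, SE 0.099, edgeR adjusted p = 0.000116), and on library totals it was higher by 0.12 and 0.39.

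*Cbfb* (ENSMUSG00000031885, chr8:105170674-105217989, plus strand), whose product binds all 3 RUNX proteins, was at 76.4, 102, 100 and 94.7 CPM in juvenile and 94.9, 94.4, 89.9 and 92.0 CPM in adult libraries. The groups overlapped and the fold change with age was 0.00093 on the log2 scale, with a 95% interval from -0.23 to 0.23 (edgeR adjusted p = 0.999). It was at 68.1 and 65.0 CPM in *c-Myc* and 63.2 and 62.6 CPM in *c-Myc* + *R172H* libraries, where its 1.42-fold lower level with *c-Myc* (-0.51, SE 0.12, edgeR adjusted p = 0.00321) was the smallest change among the factors called there, and turned to 0.33 higher on library totals. With the collagen genes and *Gm26917* left out of the totals it was -0.20 (edgeR adjusted p = 0.159), and *Cbfb* was the single factor of the 6 whose call was lost there.

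Of the other RUNX genes, *Runx1* fell with *Runx2* in *c-Myc* osteoblasts. *Runx3* rose there. *Runx3*, best known in chondrocytes and T cells, was at 15.7 to 27.3 CPM in juvenile and 32.1 to 65.3 CPM in adult libraries with no overlap, and was 2.32-fold lower in juvenile cells (log2 fold change -1.22, SE 0.23, edgeR adjusted p = 0.00892). The adult libraries also had the higher chondrocyte marker sums given above. *Runx3* rose 1.52-fold with *c-Myc* (0.60, SE 0.20, edgeR adjusted p = 0.0229), where those markers were lower than in juvenile libraries. The part of chondrocytes in these differences of *Runx3* was not tested. *Runx1* was at 55.9 to 76.8 CPM in juvenile and 51.5 to 67.7 CPM in adult libraries, and fell 2.01-fold with *c-Myc* (-1.01, SE 0.14, edgeR adjusted p = 5.67e-05). Counts of *Runx3* were 0.0942 ± 0.019 of those of *Runx2* in juvenile (SD, n = 4), 0.312 ± 0.15 in adult (SD, n = 4), 0.237 ± 0.0037 in *c-Myc* (SD, n = 2) and 0.216 ± 0.022 in *c-Myc* + *R172H* libraries (SD, n = 2), a ratio that no scaling between libraries can change. Counts of *Runx1* were 0.245 to 0.371 of those of *Runx2* in juvenile, 0.296 to 0.396 in adult, 0.237 to 0.250 in *c-Myc* and 0.254 to 0.255 in *c-Myc* + *R172H* libraries. The juvenile range overlapped the others.

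*Sp7* (ENSMUSG00000060284, chr15:102356606-102367182, minus strand) varied least of the factors among juvenile libraries, with a mean of 237 ± 7.98 CPM (SD, n = 4), and was the only one called with age. Its levels were 227, 236, 246 and 241 CPM in juvenile and 141, 193, 192 and 176 CPM in adult libraries, and the groups did not overlap. The 1.34-fold higher juvenile level (log2 fold change 0.43, SE 0.12) sat at the threshold (edgeR adjusted p = 0.04996). Leaving out adult replicate 2 kept the call (adjusted p = 0.0312), and leaving out any other library, juvenile or adult, lost it (adjusted p from 0.0604 to 0.143). *Sp7* was at 122 and 152 CPM in *c-Myc* and 119 and 123 CPM in *c-Myc* + *R172H* libraries. It fell 1.76-fold with *c-Myc* (-0.81, SE 0.10, edgeR adjusted p = 2.51e-05) and 1.95-fold with *c-Myc* + *R172H* (-0.97, SE 0.10, edgeR adjusted p = 5.43e-06), against 0.017 and 0.082 on library totals.

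The CreERT2 entry, which reads the recombinase in the *Sp7* locus, gave a second measure of that locus. It was at 50.1, 67.6, 67.7 and 69.7 CPM in juvenile, 35.8, 53.3, 47.6 and 37.7 CPM in adult, 34.6 and 35.0 CPM in *c-Myc* and 25.2 and 27.5 CPM in *c-Myc* + *R172H* libraries. CreERT2 was 1.46-fold higher in juvenile than adult cells (log2 fold change 0.54, SE 0.15, edgeR adjusted p = 0.0493), with 1 juvenile library inside the adult range, and this call too was lost in 6 of the 8 fits that leave out a library. It fell 1.86-fold with *c-Myc* (-0.89, SE 0.14, edgeR adjusted p = 0.000191), while on library totals the value was -0.049. CreERT2 counts were 0.268 ± 0.032 of *Sp7* counts in juvenile (SD, n = 4), 0.248 ± 0.025 in adult (SD, n = 4), 0.256 ± 0.037 in *c-Myc* (SD, n = 2) and 0.218 ± 0.0088 in *c-Myc* + *R172H* libraries (SD, n = 2). The juvenile range overlapped that of every other group, but with adult and *c-Myc* + *R172H* libraries only through juvenile replicate 1 (0.221). The remaining juvenile libraries, at 0.275764 to 0.289474, lay above the adult (at most 0.27554) and *c-Myc* + *R172H* libraries (at most 0.224). How reads from the altered allele were assigned between the entries is not given in the sources used here. The reporter GFP entry was at 285 to 573 CPM in juvenile and 381 and 405 CPM in *c-Myc* libraries and was not called (log2 fold change -0.19, SE 0.19, edgeR adjusted p = 0.429). The tdTomato entry, which recombination should silence, was at 0.695 to 8.68 CPM in juvenile and 32.8 and 34.5 CPM in *c-Myc* libraries (2.93, SE 0.59, edgeR adjusted p = 0.00279), and its part in the results was not tested.

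**Figure D3:**
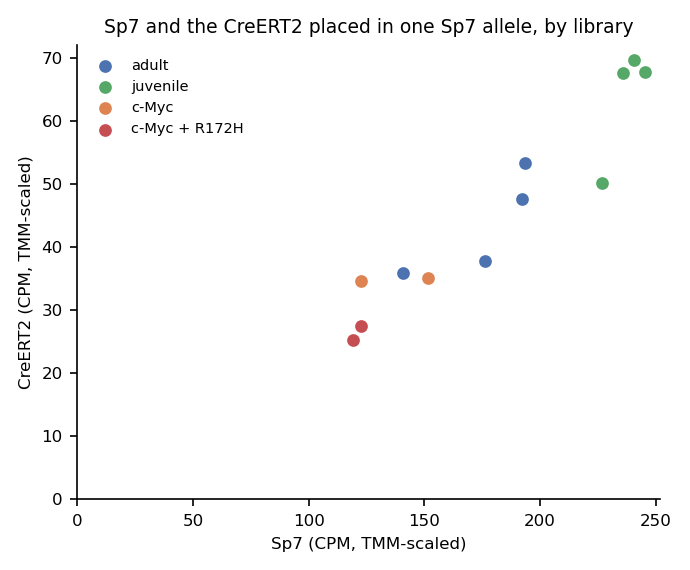
*Sp7* (horizontal axis, CPM) and CreERT2 (vertical axis, CPM) in each of the 12 libraries, with both axes linear and starting at 0 and each colour a group. Juvenile libraries lie at 227 to 246 CPM of *Sp7*, to the right of all other libraries, and *c-Myc* + *R172H* libraries have the lowest CreERT2, 25.2 and 27.5 CPM.

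The DLX genes differed from each other in level and in response. *Dlx3* (ENSMUSG00000001510, chr11:95120119-95125296, plus strand), a homeodomain factor of bone, tooth and hair, was at 97.0, 109, 123 and 99.3 CPM in juvenile and 42.8, 108, 90.4 and 51.9 CPM in adult libraries. Adult replicate 2 again reached the juvenile range. The 1.46-fold higher juvenile level did not pass edgeR's test (log2 fold change 0.54, SE 0.26, adjusted p = 0.292), and without adult replicate 2 it did (0.80, adjusted p = 0.0389). In *c-Myc* osteoblasts *Dlx3* was at 28.5 and 35.5 CPM, and in *c-Myc* + *R172H* osteoblasts at 20.4 and 24.1 CPM, far below the lowest juvenile library. It fell 3.39-fold with *c-Myc* (-1.76, SE 0.15, edgeR adjusted p = 7.66e-07) and 4.79-fold with *c-Myc* + *R172H* (-2.26, SE 0.15, edgeR adjusted p = 9.94e-08), and stayed lower on library totals, by 0.93 and 1.21.

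*Dlx5* (ENSMUSG00000029755, chr6:6877805-6882085, minus strand), which acts upstream of *Runx2* and *Sp7* in bone, was at 46.2, 45.0, 47.7 and 52.7 CPM in juvenile and 36.7, 62.0, 48.5 and 44.4 CPM in adult libraries, with means of 47.9 CPM in both. Its 95% interval with age ran from -0.30 to 0.29 on the log2 scale (edgeR adjusted p = 0.992). With *c-Myc* it was at 22.4 and 27.0 CPM and with *c-Myc* + *R172H* at 21.4 and 21.2 CPM, and it fell 1.97-fold (-0.98, SE 0.13, edgeR adjusted p = 5.71e-05) and 2.23-fold (-1.16, SE 0.14, edgeR adjusted p = 1.30e-05). On library totals the values were -0.14 and -0.11, and neither was called. *Dlx6* (ENSMUSG00000029754, chr6:6863334-6868568, plus strand), the neighbour of *Dlx5* that is read in the other direction, was at 9.41, 5.57, 9.18 and 21.1 CPM in juvenile and 6.68, 12.1, 5.95 and 10.9 CPM in adult libraries, where the groups overlapped (log2 fold change 0.33, SE 0.37, edgeR adjusted p = 0.692). It was at 7.76 and 6.98 CPM in *c-Myc* and 7.05 and 7.69 CPM in *c-Myc* + *R172H* libraries, inside the juvenile range, with a 95% interval from -1.43 to 0.17 for *c-Myc* (edgeR adjusted p = 0.214). *Dlx6* counts were 0.230 ± 0.12 of those of *Dlx5* in juvenile (SD, n = 4), 0.186 ± 0.050 in adult (SD, n = 4), 0.302 ± 0.062 in *c-Myc* (SD, n = 2) and 0.346 ± 0.023 in *c-Myc* + *R172H* libraries (SD, n = 2), and these ranges overlapped between juvenile cells and each induced group. Of the remaining DLX genes, *Dlx4* was at 1.29 to 2.67 CPM in all libraries and was called in no comparison. *Dlx1* reached at most 0.298 CPM and did not pass the filter on low counts in any comparison. *Dlx2* did not pass it with age, and was at 0 to 0.695 CPM in juvenile and 1.10 and 1.30 CPM in *c-Myc* libraries, without a call (edgeR adjusted p = 0.0622).

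*Msx1* and *Msx2* were the lowest of the factors, and at this depth their differences were read from few counts. *Msx2* (ENSMUSG00000021469, chr13:53466884-53473074, minus strand) had 8, 8, 4 and 20 counts in juvenile, 10, 13, 16 and 2 in adult, 66 and 89 in *c-Myc* and 67 and 89 in *c-Myc* + *R172H* libraries. In CPM these were 0.731, 0.826, 0.556 and 2.48 in juvenile, 1.01, 1.47, 2.07 and 0.213 in adult, 3.01 and 5.05 in *c-Myc* and 3.07 and 4.42 in *c-Myc* + *R172H* libraries. Every induced library lay above every library without induction. *Msx2* passed the filter on low counts only through the induced libraries, where it was high. With at least 10 counts asked of every library it was filtered out, so its calls describe these libraries and are no independent support. *Msx2* was the only factor that rose, 3.47-fold with *c-Myc* (log2 fold change 1.80, SE 0.56, edgeR adjusted p = 0.0161) and 3.30-fold with *c-Myc* + *R172H* (1.72, SE 0.56, edgeR adjusted p = 0.0190), and its direction held on library totals. The *c-Myc* call was lost without *c-Myc* replicate 2 (1.37, edgeR adjusted p = 0.194), and the *c-Myc* + *R172H* call without either of its own libraries (1.93, edgeR adjusted p = 0.0548, without replicate 1 and 1.39, adjusted p = 0.181, without replicate 2). It did not pass the filter on low counts with age, where without a filter the value was -0.051 (SE 0.95, edgeR adjusted p = 0.988).

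*Msx1* (ENSMUSG00000048450, chr5:37820485-37824583, minus strand) was at 6.03, 2.89, 6.82 and 0.745 CPM in juvenile and 4.86, 1.35, 5.95 and 5.86 CPM in adult libraries. It was at 2.56 and 4.31 CPM in *c-Myc* and 3.34 and 4.86 CPM in *c-Myc* + *R172H* libraries. Libraries of one group thus differed more than the group means, and juvenile replicate 4, with 6 counts, was the lowest. The intervals were wide, from -1.24 to 0.97 with age (edgeR adjusted p = 0.938) and from -1.50 to 0.92 with *c-Myc* (edgeR adjusted p = 0.714), and held changes of either sign. In juvenile replicate 4 the highest *Msx2*, the highest *Dlx6* and the lowest *Msx1* of the group came together.

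*Twist1* (ENSMUSG00000035799, chr12:33957671-33959829, plus strand) was at 32.5, 35.9, 59.7 and 28.9 CPM in juvenile and 19.2, 27.0, 35.3 and 23.9 CPM in adult libraries. The groups overlapped, and the 1.48-fold higher juvenile level (log2 fold change 0.57, SE 0.23) did not pass edgeR's test (adjusted p = 0.168). In *c-Myc* osteoblasts it was at 10.1 and 12.2 CPM and in *c-Myc* + *R172H* osteoblasts at 8.61 and 12.2 CPM, below every library without induction. It fell 3.56-fold with *c-Myc* (-1.83, SE 0.28, edgeR adjusted p = 0.000151) and 3.73-fold with *c-Myc* + *R172H* (-1.90, SE 0.28, edgeR adjusted p = 0.000102), and stayed lower by 0.99 and 0.85 on library totals. A restrainer of RUNX2 and the activator *Dlx3* were thus the factors that fell most. *Twist2*, the close relative of *Twist1*, was at 0 in all juvenile and *c-Myc* libraries and at most 1.62 CPM in adult ones.

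Set against *Runx2* in the same library, the factors kept or lost their proportions, and these ratios do not depend on the scaling. *Sp7* counts were 1.05 ± 0.12 of *Runx2* in juvenile (SD, n = 4), 1.04 ± 0.16 in adult (SD, n = 4), 0.968 ± 0.10 in *c-Myc* (SD, n = 2) and 0.838 ± 0.039 in *c-Myc* + *R172H* libraries (SD, n = 2). *Dlx3* went from 0.476 ± 0.088 in juvenile (SD, n = 4) to 0.226 ± 0.025 in *c-Myc* (SD, n = 2) and 0.154 ± 0.022 in *c-Myc* + *R172H* libraries (SD, n = 2), *Twist1* from 0.176 ± 0.076 to 0.0788 ± 0.0067 and 0.0723 ± 0.020, and *Msx2* from 0.00507 ± 0.0040 to 0.0283 ± 0.0089 and 0.0260 ± 0.0073. For *Dlx3*, *Dlx5*, *Twist1* and *Msx2* the induced libraries lay outside the juvenile range, whereas for *Sp7* the *c-Myc* range (0.895 to 1.04) overlapped that of juvenile cells (0.909 to 1.19) and the *c-Myc* + *R172H* range (0.810 to 0.865) lay below it. *Dlx5* was 0.212 ± 0.025 of *Runx2* in juvenile and 0.278 ± 0.021 in adult libraries (SD, n = 4 each) with no overlap, the single ratio among these 6 whose values did not overlap between the ages, which is a description and was not tested. In *c-Myc* libraries it was 0.164 to 0.18507, at the edge of the juvenile range, whose lowest value was 0.185145, and in *c-Myc* + *R172H* libraries 0.146 to 0.150. *Cbfb* was 0.415 ± 0.077 of *Runx2* in juvenile, 0.555 ± 0.11 in adult (SD, n = 4 each), 0.472 ± 0.036 in *c-Myc* and 0.436 ± 0.0085 in *c-Myc* + *R172H* libraries (SD, n = 2 each).

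**Figure D4:**
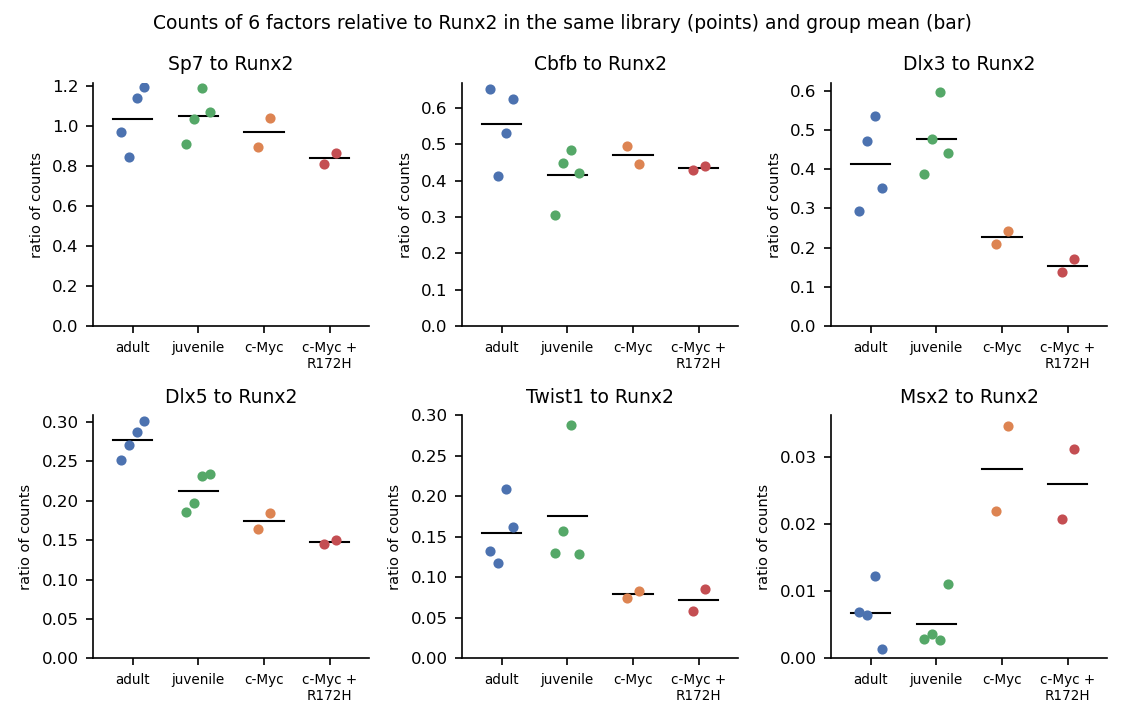
Counts of *Sp7*, *Cbfb*, *Dlx3*, *Dlx5*, *Twist1* and *Msx2* divided by counts of *Runx2* in the same library (vertical axes from 0), by group, with points for libraries and bars for group means. The *Dlx3*, *Dlx5*, *Twist1* and *Msx2* ratios of the induced libraries lie outside the juvenile range, *Dlx5* in *c-Myc* libraries only just, and the *Dlx5* ratio separates adult from juvenile libraries.

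Mutant p53 in addition to *c-Myc* was associated with no called change of the factors. The largest difference was that of *Dlx3*, 1.41-fold lower in *c-Myc* + *R172H* than in *c-Myc* osteoblasts (log2 fold change -0.50, SE 0.16), with an unadjusted p of 0.00856 from edgeR and an adjusted p of 0.407. It was the 1 factor with an unadjusted p under 0.05, DESeq2 also called 0 factors, and it passed in an edgeR fit of these 4 libraries alone (adjusted p = 0.0105). All genes called in that fit were 189 higher and 440 lower, against 1 and 58 with the juvenile libraries in the fit and 6 and 195 by DESeq2, so the call rate itself depended on the fit, and 589 genes had an unadjusted p under 0.05. For *Runx2* the 95% interval ran from -0.16 to 0.28, for *Sp7* from -0.37 to 0.069, for *Dlx5* from -0.48 to 0.11, for *Cbfb* from -0.32 to 0.21 and for *Twist1* from -0.68 to 0.54 on the log2 scale, all with an edgeR adjusted p of 1. For *Dlx6*, *Msx1* and *Msx2* the intervals ran past 0.9 in at least 1 direction, to 0.92, 1.64 and 1.12 upwards. CreERT2 was lower by 0.37 (SE 0.16, edgeR adjusted p = 0.934).

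The genes around the factors were read from lists written by hand, with changes again relative to the bulk of genes. Of 31 genes of the RUNX family, its partners and its antagonists, 6 rose, 11 fell and 14 were not called with *c-Myc*, with a median of -0.45. Of all genes 28.4% rose and 25.0% fell there. The same shares stand beside the other lists in this comparison, and with age the shares were 1.89% and 3.23%. The largest changes called were in corepressors and cofactors, *Runx1t1* (-2.85, from at most 1.86 CPM), *Cbfa2t3* (-1.99), *Hdac7* (-1.72) and *Zfp423* (-1.69), and those that rose included *Ccnd1*, *Tle4*, *Cdk4*, *Runx3* and *Yap1*, among them cell cycle genes. With age 2 of 30 were higher in juvenile cells, *Smad1* (0.87), a mediator of BMP signals, and *Hdac5* (0.64), and *Runx3* was lower. Of 13 TWIST1 partners and related factors, 9 were tested with *c-Myc*, where 2 rose, the E proteins *Tcf3* and *Tcf12*, and 5 fell. *Id4* (-2.33), *Id1* (-1.81), *Id2* (-1.56) and *Id3* (-1.53) fell together with *Twist1*, and *Id3* went from 220 ± 30.3 CPM in juvenile (SD, n = 4) to 77.6 ± 5.21 CPM in *c-Myc* osteoblasts (SD, n = 2). With age *Id1* was lower in juvenile cells (-1.13) and *Scx*, a tendon factor, higher (0.91).

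Of 21 other DLX, MSX and limb homeobox factors, 11 were tested with *c-Myc*, of which 1 rose and 6 fell. *Nkx3-2* (-3.31), a factor of immature cartilage, and *Alx4* (-2.74) fell, and *Pitx1*, the hindlimb factor, rose (1.03). With age *Nkx3-2* (-2.04) and *Shox2* (-0.56) were lower in juvenile cells. Of 36 other osteoblast transcription factors 5 rose and 21 fell with *c-Myc*, against 28.4% and 25.0% of all genes, with a median of -0.59, and the largest were *Lef1* (-3.25), *Sox9* (-3.20), the cartilage regulator, *Cebpd* (-2.68) and *Fosl1* (2.63). With age 3 of 35 were higher in juvenile cells, *Tcf7* (0.96), *Jund* (0.59) and the vitamin D receptor *Vdr* (0.56), and 2 lower, *Nfatc2* (-2.45) and *Snai2* (-1.42).

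The listed target genes of RUNX2 and SP7 moved further than the factors. All 22 tested, of 23 listed, fell with *c-Myc* relative to the bulk of genes, with a median log2 fold change of -2.02 against -0.71 over the factors and 0.037 over all genes, and 21 of them by at least 1. The largest falls were those of *Col10a1* (-6.33), a collagen of hypertrophic cartilage, *Omd* (-3.64), *Bglap* (-3.29) and *Pdpn* (-3.11), and *Bglap* went from 385 ± 97.5 CPM in juvenile (SD, n = 4) to 40.0 ± 17.6 CPM in *c-Myc* cells (SD, n = 2). The chondrocyte marker sum fell beside them, and 15 of 15 of those markers were called lower. With *c-Myc* + *R172H* against juvenile, 21 of 22 fell, with a median of -2.74. Between the induced groups 4 of 22 fell further in *c-Myc* + *R172H* cells, *Col5a3* (-1.35), *Col1a1* (-1.05), *Bmp3* (-0.84) and *Col5a1* (-0.62). Of all genes 0.461% were called lower there, and 0 called among the 9 factors is close to that share. With age 3 were higher in juvenile cells, the matrix proteins *Spp1* (1.23) and *Dmp1* (1.04) and the osteoblast membrane protein *Ifitm5* (0.87), and none lower, with a median of 0.48.

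In *c-Myc* + *R172H* against juvenile osteoblasts, which shares its controls with that of *c-Myc* and in which 30.4% of all genes rose and 26.3% fell, 6 of 31 RUNX family, partner and antagonist genes rose and 10 fell, led by *Cbfa2t3* (-2.93), *Zfp423* (-2.67), *Tle4* (2.04), a Groucho corepressor, and *Hdac7* (-2.03). Of 9 TWIST1 partners 2 rose and 5 fell, led by *Id1* (-2.52), *Id4* (-2.04), *Id3* (-1.87) and *Id2* (-1.63). Of 11 homeobox factors 1 rose and 6 fell, among them *Nkx3-2* (-4.17), *Alx4* (-2.99) and *Prrx1* (-0.79), a limb mesenchyme factor. Of 36 other osteoblast transcription factors 6 rose and 19 fell, led by *Nfia* (-3.06), *Cebpd* (-2.99), *Sox9* (-2.93) and *Lef1* (-2.90). The target genes were led by *Col10a1* (-8.11), *Bglap* (-5.19), *Pdpn* (-5.12) and *Omd* (-4.64). Between the 2 induced groups none of the RUNX, TWIST1, homeobox or other transcription factor lists had a called gene. Of all genes 0.00794% were called higher and 0.461% lower there.

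**Figure D5:**
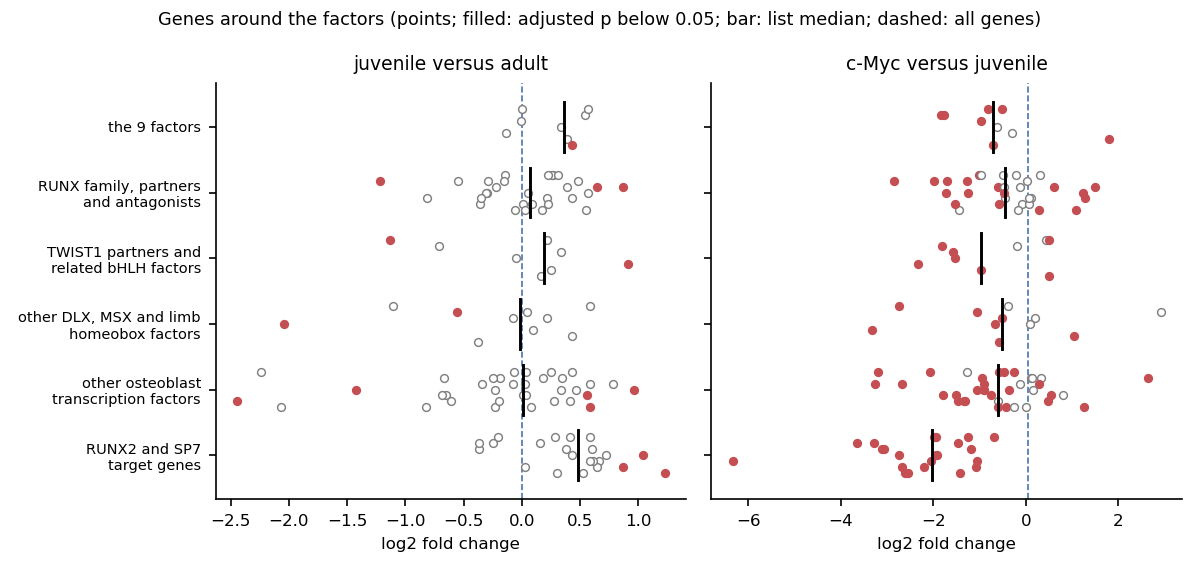
Log2 fold change (horizontal axis) of each tested gene of the 9 factors and 5 gene lists, for juvenile over adult (left) and *c-Myc* over juvenile (right); filled points passed an adjusted p below 0.05, black bars are list medians, the dashed line is the median of all genes and the vertical spread within a list carries no value. The 22 target genes all lie below 0 with *c-Myc*, with a median of -2.02, while the factors have a median of -0.71 and *Msx2* above 0; on library totals *Runx2*, *Sp7* and *Cbfb* lay above 0.

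Likeness of pattern was measured as the root mean square difference of log2 CPM centred on each gene's mean over the 12 libraries, among 13005 genes. Among the factors, *Runx2* and *Sp7* were the closest pair (0.19), followed by *Sp7* and *Cbfb* (0.25) and *Sp7* and *Dlx5* (0.26), and *Dlx3* and *Msx2* were the farthest (1.60). A gene that varies little is near to others that vary little. The root mean square of the gene's own centred values was 0.319 for *Runx2*, 0.385 for *Sp7* and 0.264 for *Cbfb*, about as large as the distance of *Sp7* and *Cbfb*. The genes nearest to *Runx2* were *Mpnd* (0.092), *Sema5a* (0.11) and *Dock1* (0.12), those nearest to *Sp7* were *Mbd2* (0.087), *Plxnb1* (0.10) and *Tbc1d17* (0.10), and those nearest to *Cbfb* were *Atg9a* (0.069), *Dennd5a* (0.098) and *Mapk3* (0.098). *Dlx3* was nearest to *Tmem229b* (0.12), *Ccn4* (0.16) and *Car3* (0.16), *Dlx5* to *Sh3glb1* (0.089), *Palld* (0.096) and *Slco3a1* (0.11), and *Twist1* to *Pxdc1* (0.20), *Podxl2* (0.23) and *Ckb* (0.23). *Dlx6*, *Msx1* and *Msx2*, with few counts, had no gene closer than 0.28, 0.30 and 0.38. These distances share libraries, depth and group structure and are descriptions only.

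Some factors have neighbours on the other strand whose reads could be mixed with theirs, since the strand setting of the counting is not given in the sources used here. *Runx2os1* shares 519 of the 8837 exon bases of *Runx2* and *Dlx6os2* shares 104 of the 2375 of *Dlx6*, whereas *Runx2os2*, *Runx2os3*, *Supt3* and *Dlx6os1* overlap these genes without sharing exon bases. *Runx2os1* was at 0.278 to 1.64 CPM, *Supt3* at 1.67 to 5.86 CPM and *Dlx6os1* at 0.776 to 4.33 CPM over all libraries, and none was called in any comparison. *Runx2os3* was at 0 in all libraries and *Runx2os2* reached 0.0567 CPM. The methods name a directional library kit. Of 130 genes lying wholly under exons of the other strand, 67 had a count and 6 had at least 100. A count without strand that drops reads overlapping 2 genes would leave such genes at 0. The gene models used here are of another GENCODE release than the authors' count, so this check cannot settle the strand setting. For *Runx2*, at 137 CPM or more in all libraries, the neighbours' counts were small beside its own.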

How the data were processed

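Per the labels and methods, the authors used cutadapt 4.6 for trimming, STAR 2.7.11a for alignment to mm10 and HTSeq 2.0.5 for counting, with different GENCODE releases for alignment and counting, and deposited unnormalized counts of 32288 genes and transgenes in 12 libraries. Totals were 9066154 to 15684412 counts per library.

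Counts were tested in R 4.3.3 with edgeR 4.0.16 (filterByExpr, TMM, robust glmQLFit, glmQLFTest), with Benjamini-Hochberg adjusted p-values called at 0.05. The 8 juvenile and adult libraries were fitted together, and the juvenile libraries with both induced groups in a second fit, which assumes a common spread. SEs were approximated from the fold change and its F value, and p-values measure the spread between libraries. The procedure was also run on counts simulated from its own model, with few genes changed and as many up as down. Such counts cannot test the scaling where many genes change. CPM were scaled over all 12 libraries, and exon lengths come from GENCODE on GRCm38. The factors and lists were chosen with earlier results of these data known. Named are all factors, the transgenes, the related RUNX, TWIST and DLX genes, overlapping neighbours, the 3 genes most like each factor and, per list and comparison, up to 4 called genes with the largest change; the RUNX list genes that rose, *Tcf3*, *Tcf12* and *Vdr* were named after their values were seen, and some listed genes are counted but not reported by name here. Alternatives were other normalizations, filters and sets of libraries, a replicate block, leaving out single libraries, and DESeq2 1.42.0, and library totals without *Col1a1*, *Col1a2* and *Gm26917* were added after the data were seen.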

Additional observations from a re-analysis of the deposited data

Results flagged for a closer look

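*Msx2* in juvenile replicate 4 stood apart from the other juvenile libraries, at 2.48 CPM (20 counts) where the next highest was 0.826 CPM (8 counts). Without this library the log2 fold change of *Msx2* with *c-Myc* was 2.45 (edgeR adjusted p = 0.000757) in place of 1.80. CreERT2 in juvenile replicate 1 stood apart at 50.1 CPM, where the next lowest juvenile library was at 67.6 CPM. Without it the log2 fold change of CreERT2 with age was 0.64 (edgeR adjusted p = 0.0389) in place of 0.54. The gap of an extreme library to its neighbour was tested in 24 groups of 4 libraries, and chance alone flags about 1 in 20.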

How the results depend on the processing

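With age, the call of *Sp7* was the weakest of the report: 1 factor was called higher, 0 with RLE, upper-quartile and library total normalization, 0 with at least 10 counts in every library and 0 with the replicate block, and 3 with no filter on low counts (*Runx2*, *Sp7* and *Twist1*), and from 0 to 3 when a library was left out, the 3 (*Runx2*, *Sp7* and *Dlx3*) without adult replicate 2. *Sp7* stayed under the threshold in 6 of 18 alternatives (edgeR or DESeq2 adjusted p from 0.0148 to 0.475) and its direction held in all 18. With *c-Myc*, 6 factors called lower became 2 on library totals, and the 1 called higher became 0 with at least 10 counts in every library, where *Msx2* was filtered out, and ranged from 0 to 1 with a library left out. With *c-Myc* + *R172H* against juvenile, library totals gave 3 higher (*Runx2*, *Cbfb* and *Msx2*) and 2 lower, and the 1 higher became 0 with at least 10 counts, 0 in a fit of the 2 groups alone and 0 to 1 with a library left out. Between the induced groups, 1 factor, *Dlx3*, was called lower in a fit of the 2 groups alone and with the replicate block (adjusted p = 0.0105 and 0.0107).

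Values that changed sign came from library totals, from leaving out a library, or from settings where the value or its main value was near 0. Library totals gave, with *c-Myc*, *Runx2* 0.12, *Sp7* 0.017, *Dlx6* 0.24, *Msx1* 0.50 and *Cbfb* 0.33; with *c-Myc* + *R172H* against juvenile, *Runx2* 0.39, *Sp7* 0.082, *Dlx6* 0.47 and *Cbfb* 0.49; between the induced groups, *Sp7* 0.065, *Dlx5* 0.035, *Msx2* 0.15, *Cbfb* 0.16 and *Twist1* 0.14; and with age, *Cbfb* -0.25. With age *Cbfb* was also -0.0021 (RLE), -0.0031 (upper-quartile), -0.014 (at least 10 counts), -0.0071 (replicate block) and -0.0026 (DESeq2), and *Dlx5* 0.00093 with all 12 libraries and 0.016 with the replicate block. Library totals without the collagen genes and *Gm26917* gave *Dlx5* 0.12 and *Msx1* 0.013 with age and *Msx1* 0.018 with *c-Myc*. *Msx1* in *c-Myc* + *R172H* against juvenile was -0.034 (RLE), -0.063 (upper-quartile), -0.0067 (all 12 libraries), -0.041 (2 groups alone), -0.16 (replicate block) and -0.030 (DESeq2), and *Dlx6* between the induced groups was -0.00075 with all 12 libraries. None of these values was called except *Runx2* and *Cbfb* in *c-Myc* + *R172H* on library totals (adjusted p = 0.0395 and 0.00653). With each library left out, ranges that crossed 0 were -0.11 to 0.15 (*Dlx5*), -0.16 to 0.57 (*Dlx6*), -0.47 to 0.21 (*Msx1*) and -0.040 to 0.089 (*Cbfb*) with age; -0.71 to 0.050 (*Msx1*) with *c-Myc*; -0.34 to 0.31 (*Msx1*) with *c-Myc* + *R172H* against juvenile; and -0.015 to 0.081 (*Runx2*), -0.071 to 0.079 (*Dlx6*), -0.071 to 0.68 (*Msx1*), -0.43 to 0.32 (*Msx2*) and -0.38 to 0.14 (*Twist1*) between the induced groups. Apart from scaling by library totals, the causes were not tested.

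The replicate numbers, taken from the titles (the adult library names carry other numbers), were not used to pair the samples in the main fits. Same-numbered juvenile and adult libraries correlated at -0.066 to 0.044. *c-Myc* and *c-Myc* + *R172H* libraries correlated at 0.16. With 2 libraries a group both numbers must give the same value, so pairing was not settled there. With the replicate block all genes called between the induced groups went from 1 higher and 58 lower to 30 and 296. Without a filter these were 14 and 208. With age, no filter gave 399 higher and 578 lower and DESeq2 319 and 616, against 214 and 367, and with a library left out 85 to 344 and 199 to 541, both highest without adult replicate 2. Library totals gave 53 and 793, or 434 and 276 without the collagen genes and *Gm26917*, and all 12 libraries in one fit 461 and 633. Between the induced groups a library left out gave 0 to 3 higher and 7 to 84 lower, fewest lower without *c-Myc* replicate 2, library totals 1 and 11, all 12 libraries 0 and 22, the 2 groups alone 189 and 440, and DESeq2 6 and 195. Counts of *Msx1*, *Msx2* and *Dlx6* were 2 to 170 per library, and the part of depth in their wide intervals, beside the spread between libraries, was not tested.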
